A study of Mus musculus with 18 samples.

Results

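Expression of 9 coagulation and P-selectin genes was examined in bone marrow-derived macrophages (BMDM) in which choline uptake or choline phosphorylation had been inhibited. The genes were *F5*, *Selp*, *F3*, *F7*, *F10*, *F13a1*, *Thbd*, *Tfpi* and *Procr*, which are 9 of 55385 genes listed. *F5* and *Selp* were chosen because their counts rose strongly under both inhibitors, and the other 7 were added for their function. For *F5* and *Selp*, every value of inhibitor against vehicle, and every IL-4 difference within vehicle, is therefore a description and carries no test. All 9 passed the filter, which asked for 10 or more counts in 2 or more of 18 libraries, as did 14979 genes in all. *F5* passed only through its inhibitor-treated libraries, since it reached 10 counts in 1 vehicle library, and *Selp* also reached 10 counts in the libraries given vehicle and IL-4.

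BMDM came from female C57BL/6J mice aged 12 weeks, were grown with L-929 culture supernatant and were harvested on day 7. Cells received 0.1% DMSO as vehicle (Veh), 250 µM hemicholinium-3 (HC3), which blocks choline uptake, or 5 µM RSM-932a (RSM), which inhibits choline kinase, for 24 h. During the next 24 h they either stayed naïve (M[0]) or met IL-4 at 20 ng/mL, which gave the M[IL-4] groups. The 6 groups hold 3 libraries each, and the labels name 3 individual mice without saying which mouse gave which library. Library totals were 17457796 to 19522255 counts, at which 3 counts equal about 0.153 to 0.176 CPM, the counts per 1000000 of the TMM-scaled library total.

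Coagulation starts when tissue factor, encoded by *F3*, binds factor VII and activates factor X, which then works with its cofactor, factor V, to turn prothrombin into thrombin. Thrombin forms fibrin, and factor XIII cross-links it. Thrombomodulin (*Thbd*) and the endothelial protein C receptor (*Procr*) redirect thrombin towards activation of protein C, which inactivates factor V, whereas *Tfpi* encodes the inhibitor of the tissue factor and factor VII complex. P-selectin (*Selp*) is an adhesion receptor best known from the granules of platelets and endothelial cells, and most plasma clotting factors are made in the liver, although macrophages can make several of them.

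In these files *Selp* and *F5* are neighbours. In GRCm38 with GENCODE M21, *Selp* (ENSMUSG00000026580) lies at chr1:164115264-164150026 and *F5* (ENSMUSG00000026579) at chr1:164151838-164220277, both on the plus strand and with 1811 bases between them. *F7* (ENSMUSG00000031443, chr8:13026034-13035809) and *F10* (ENSMUSG00000031444, chr8:13037308-13056676) form a second tandem pair on the plus strand, with 1498 bases between them. The 250 bases before each of these 4 genes are shown because *Selp* and *F5* rose with the inhibitors and *F7* and *F10* with IL-4. They come from RefSeq for GRCm38.p6, plus strand, 5′ to 3′, at chr1:164115014-164115263 for *Selp*, chr1:164151585-164151834 for *F5*, chr8:13025784-13026033 for *F7* and chr8:13037058-13037307 for *F10*.
Selp: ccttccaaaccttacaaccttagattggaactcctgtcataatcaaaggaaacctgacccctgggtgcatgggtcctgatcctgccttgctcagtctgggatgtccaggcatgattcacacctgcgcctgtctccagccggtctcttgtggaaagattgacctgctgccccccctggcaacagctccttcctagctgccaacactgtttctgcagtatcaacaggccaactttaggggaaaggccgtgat
F5: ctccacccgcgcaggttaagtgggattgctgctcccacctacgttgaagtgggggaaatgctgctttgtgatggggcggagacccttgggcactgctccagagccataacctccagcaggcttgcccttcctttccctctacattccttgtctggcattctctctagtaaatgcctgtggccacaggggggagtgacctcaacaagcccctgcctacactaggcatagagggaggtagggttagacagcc
F7: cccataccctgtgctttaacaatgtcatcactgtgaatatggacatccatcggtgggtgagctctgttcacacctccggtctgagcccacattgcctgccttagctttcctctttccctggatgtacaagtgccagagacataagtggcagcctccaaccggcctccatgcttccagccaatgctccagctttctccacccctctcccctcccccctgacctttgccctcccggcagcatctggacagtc
F10: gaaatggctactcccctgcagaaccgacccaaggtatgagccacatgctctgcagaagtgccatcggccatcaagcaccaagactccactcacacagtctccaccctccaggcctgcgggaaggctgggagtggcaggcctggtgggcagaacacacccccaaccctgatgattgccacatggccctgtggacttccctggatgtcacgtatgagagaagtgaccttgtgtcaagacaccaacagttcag
No base is in capitals because no searched motif occurred in these windows. The searches, on both strands, were for the ATF4-CHOP composite core TGATGNAA, a STAT6-type motif of TTC and GAA parted by any 4 bases, and the GATA motif AGATAA, which do not overlap one another in any of the windows. Of 32851 RefSeq promoters, 3.45% held the first, 5.85% the second and 9.99% the third within 250 bases before the start. *F3*, *F13a1* and *Procr* held none of them, while the 2 *Tfpi* entries held 1 STAT6-type and 1 GATA match. The absence of a match says only that those letters are not in these 250 bases. The remaining members are *F3* (ENSMUSG00000028128, chr3:121723537-121735048, plus strand), *F13a1* (ENSMUSG00000039109, chr13:36867178-37050244, minus strand), *Thbd* (ENSMUSG00000074743, chr2:148404466-148408188, minus strand, 1 exon), *Tfpi* (ENSMUSG00000027082, chr2:84432855-84476775, minus strand) and *Procr* (ENSMUSG00000027611, chr2:155751117-155755471, plus strand).

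The ranking of the 9 genes depended on the treatment. Per kilobase of exon, naïve vehicle cells held most *Thbd* (mean 10.6 CPM per kb), followed by *Tfpi* (4.30), *Procr* (2.73), *F7* (1.41), *F10* (1.36), *F13a1* (0.520) and *F3* (0.303), and held least *F5* (0.0650) and *Selp* (0.00406). In RSM M[IL-4] cells *F5* led at 30.2 CPM per kb, ahead of *Thbd* at 12.0 CPM per kb. In vehicle M[IL-4] cells *F10* led at 22.1 CPM per kb, with *F7* at 11.9 CPM per kb. These are RNA levels of a culture, in which fewer cells of a type and less RNA per cell cannot be told apart.

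**Figure D1:**
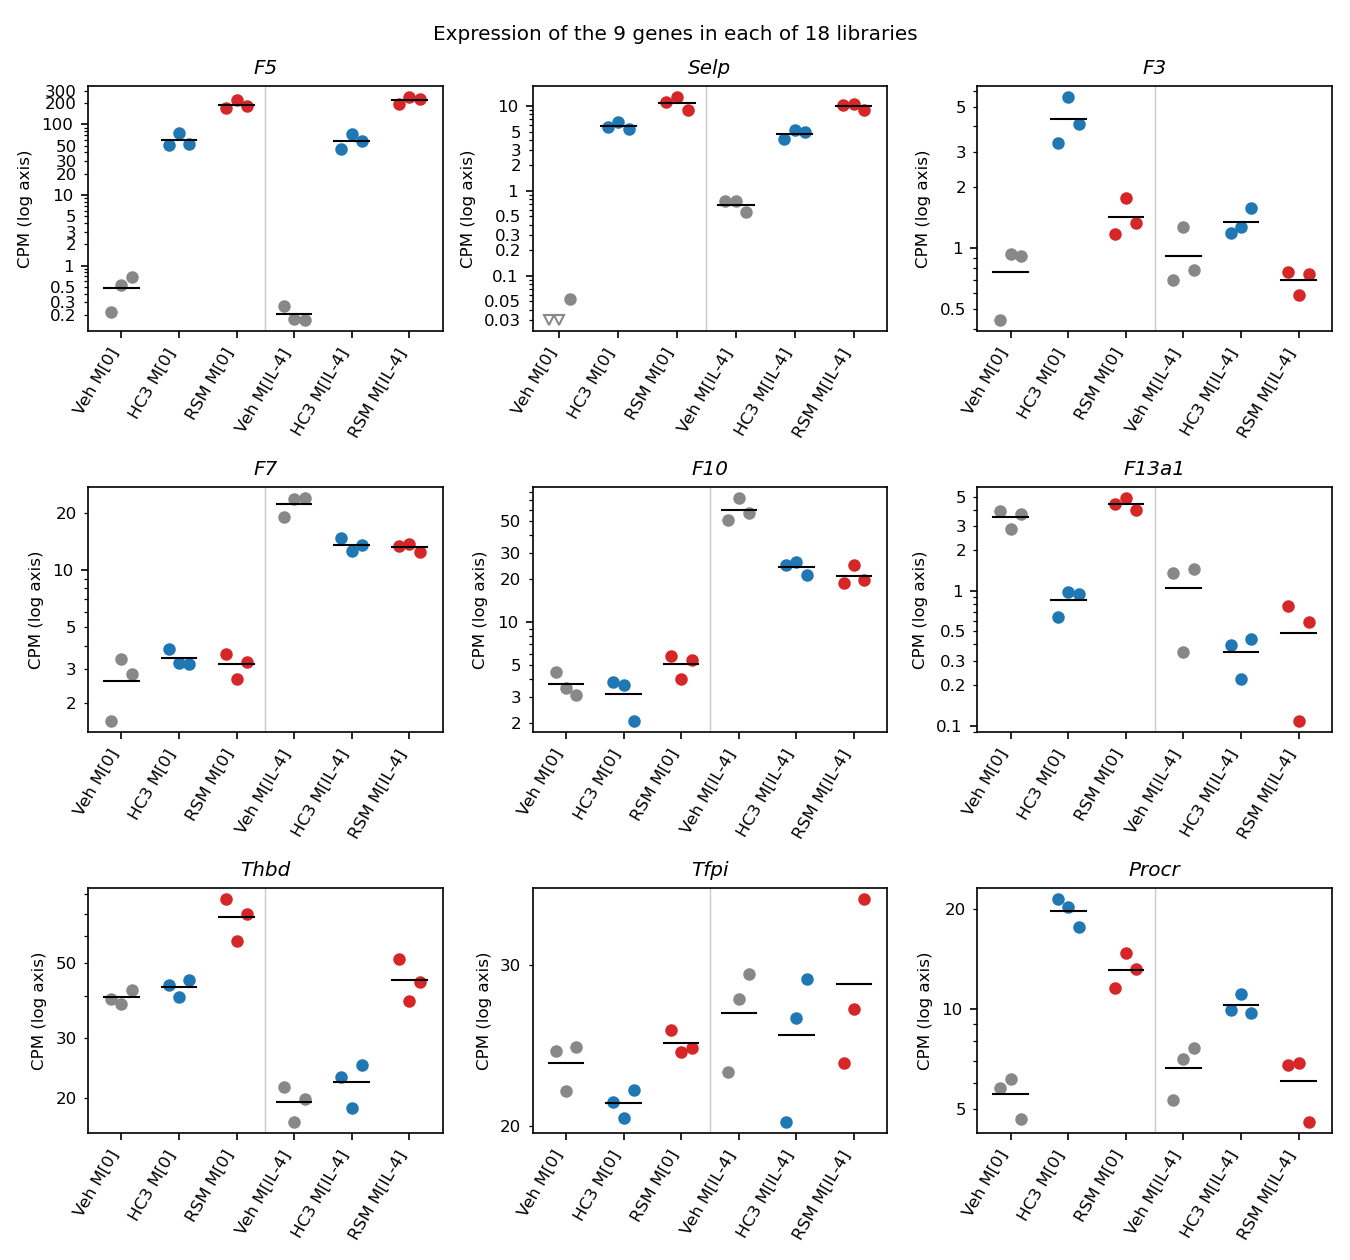
CPM (log axis, scaled differently in each panel) of the 9 genes in all 18 libraries. Each point is 1 library, grey for Veh, blue for HC3 and red for RSM, horizontal bars are group means of 3 libraries, and open triangles in the *Selp* panel mark the 2 libraries with 0 counts. *F5* sits below 1 CPM in all 6 Veh libraries and above 44 CPM in all 12 inhibitor libraries, whereas *F7* and *F10* separate by IL-4.

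*F5*, the gene of factor V, was close to the counting limit in every vehicle library and abundant in every inhibitor library. In M[0] it had 4, 9 and 13 counts with Veh, 943, 1467 and 1006 with HC3, and 3168, 4199 and 3574 with RSM. In M[IL-4] the counts were 5, 3 and 3 with Veh, 794, 1301 and 1056 with HC3, and 3862, 4520 and 4368 with RSM. The vehicle, HC3 and RSM libraries did not overlap in either polarization. Mean levels were 0.483 ± 0.242, 59.5 ± 13.6 and 190.7 ± 26.1 CPM in M[0] and 0.204 ± 0.0567, 58.3 ± 13.5 and 224 ± 24.4 CPM in M[IL-4] (SD, n = 3). The ratio of summed counts to vehicle was 127 (95% exact interval 86.5 to 195) for HC3 and 410 (279 to 627) for RSM in M[0], and 294 (164 to 591) and 1129 (631 to 2263) in M[IL-4]. These intervals cover counting error only, and these are the values on which the gene was picked.

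Per kilobase of exon, *Selp* had less RNA than *F5* except in vehicle M[IL-4] cells, where *Selp* had more (0.156 against 0.0274 CPM per kb). The order of treatments was the same. In M[0] it had 0, 0 and 1 counts with Veh, 107, 127 and 103 with HC3, and 207, 243 and 175 with RSM. In M[IL-4] it had 14, 13 and 10 counts with Veh, 73, 93 and 90 with HC3, and 202, 194 and 169 with RSM. Again the 3 treatments did not overlap in either polarization. Means were 0.0179 ± 0.0310, 5.88 ± 0.559 and 10.9 ± 1.87 CPM in M[0] and 0.689 ± 0.112, 4.74 ± 0.534 and 9.91 ± 0.796 CPM in M[IL-4] (SD, n = 3). Because the naïve vehicle group holds 1 count, its ratios are loosely bounded, at 326 (58.1 to 12908) for HC3 and 608 (109 to 24069) for RSM. In M[IL-4], where vehicle has 37 counts, they were 7.11 (5.03 to 10.3) and 14.9 (10.7 to 21.4). These too are values on which the gene was selected.

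What the choice of these genes did not use is the comparison between the inhibitors and the effect of IL-4 within an inhibitor, although both share libraries with it. Tests were edgeR's quasi-likelihood test over all 14979 genes, and a gene was called where its Benjamini-Hochberg FDR fell under 0.05 and its log2 difference reached 1 in either direction. *F5* was lower with HC3 than with RSM in M[0] (log2 difference -1.68, SE 0.160, FDR 6.49e-07) and in M[IL-4] (-1.94, SE 0.161, FDR 1.08e-07). *Selp* passed both criteria in M[IL-4] (-1.06, SE 0.168, FDR 0.000222), though without replicate 1 the log2 difference was -0.95, and only the FDR criterion in M[0] (-0.89, SE 0.164, FDR 0.000940).

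In vehicle cells *Selp* had more counts after IL-4 and *F5* fewer, which is given as a description because the low vehicle libraries were part of the choice. With Veh, *Selp* went from 1 to 37 summed counts, a ratio of 35.7 with a 95% counting interval of 6.01 to 1446, and the ranges did not overlap. *F5* went from 26 to 11 summed counts, a ratio of 0.408 (0.182 to 0.854), and its ranges overlapped. With HC3 or RSM the *Selp* log2 differences between M[IL-4] and M[0] were -0.31 (FDR 0.263) and -0.14 (FDR 0.658). Those of *F5* were -0.03 (SE 0.160, FDR 0.935) with HC3 and 0.23 (SE 0.153, FDR 0.372) with RSM.

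**Figure D2:**
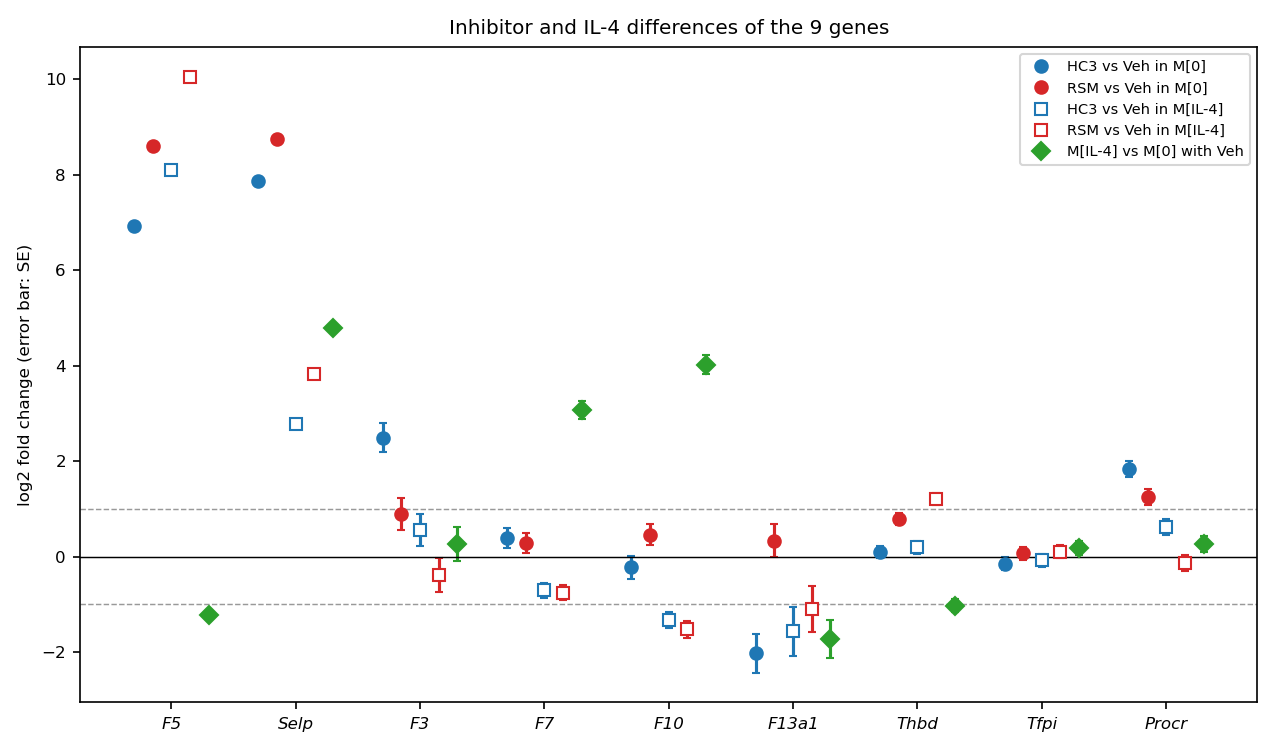
Log2 fold changes of the 9 genes for HC3 and RSM against Veh in M[0] (filled circles) and M[IL-4] (open squares), and for IL-4 in Veh cells (green diamonds). Error bars are SE, dashed lines mark a log2 fold change of 1 in either direction, and the values of *F5* and *Selp* have no error bars because those genes were chosen on these libraries. The large green values are those of *F10* and *F7* at 4.02 and 3.08 and that of *Selp* at 4.78, which rests on 37 against 1 counts, and *F3* and *Procr* the highest inhibitor values of the other 7 genes, at 2.49 and 1.83 with HC3 in M[0].

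*F7* and *F10*, the genes of the protease pair started by tissue factor, rose with IL-4 in all 3 treatments, less far in the presence of either inhibitor. *F10* in M[0] measured 4.53, 3.47 and 3.12 CPM with Veh, 3.85, 3.64 and 2.05 CPM with HC3, and 5.82, 4.03 and 5.49 CPM with RSM. In M[IL-4] it measured 51.1, 72.5 and 57.4 CPM with Veh, 25.0, 26.1 and 21.2 CPM with HC3, and 18.6, 24.8 and 19.5 CPM with RSM. All 3 IL-4 groups lay above all M[0] libraries, and the vehicle M[IL-4] libraries lay above every other library. IL-4 raised *F10* by 4.02 on the log2 scale with Veh (SE 0.204, FDR 4.47e-11), by 2.92 with HC3 (FDR 8.41e-09) and by 2.03 with RSM (FDR 3.31e-07). Within M[IL-4], *F10* was lower with HC3 (log2 -1.32, SE 0.170, FDR 4.63e-06) and with RSM (-1.53, SE 0.171, FDR 8.00e-07).

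In M[IL-4] the *F7* means followed the order of those of *F10* at a lower level. In M[0] it measured 1.60, 3.41 and 2.85 CPM with Veh, 3.85, 3.23 and 3.21 CPM with HC3, and 3.63, 2.67 and 3.29 CPM with RSM, so the groups overlapped. In M[IL-4] it measured 19.0, 23.5 and 23.8 CPM with Veh, 14.7, 12.5 and 13.5 CPM with HC3, and 13.3, 13.7 and 12.3 CPM with RSM, and here vehicle lay above both inhibitors. IL-4 raised *F7* by 3.08 (FDR 4.65e-10), 1.98 (FDR 2.51e-07) and 2.04 (FDR 1.29e-07) on the log2 scale with Veh, HC3 and RSM. In M[IL-4] the falls with HC3 (log2 -0.71, FDR 0.00160) and RSM (-0.75, FDR 0.000900) passed the FDR but not the fold criterion.

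The 2 inhibitors were not told apart for this pair in M[IL-4], where the difference of HC3 from RSM was 0.05 for *F7* (95% interval -0.29 to 0.39) and 0.20 for *F10* (-0.16 to 0.56) on the log2 scale. The effect of each inhibitor differed between polarizations for both genes. For *F10* the interaction was -1.99 with RSM (FDR 0.000133) and -1.10 with HC3 (FDR 0.0304). For *F7* it was -1.04 with RSM (FDR 0.0157) and -1.10 with HC3 (FDR 0.0157). Among these 4, the RSM interaction of *F10* stayed called without each replicate number in turn, that of *F10* with HC3 was lost without any of them, and those of *F7* were lost without some of them.

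*F3*, the gene of tissue factor, was raised by HC3 in naïve cells. It had 8, 16 and 17 counts with Veh, 62, 109 and 78 with HC3, and 22, 34 and 26 with RSM in M[0]. In M[IL-4] the counts were 13, 22 and 14 with Veh, 21, 23 and 29 with HC3, and 15, 11 and 14 with RSM. The HC3 M[0] libraries lay above all others, whereas in M[IL-4] vehicle overlapped both inhibitors. HC3 raised *F3* in M[0] from 0.765 ± 0.280 to 4.33 ± 1.15 CPM (SD, n = 3; log2 2.49, SE 0.307, FDR 2.28e-06). The RSM difference in M[0] (log2 0.90, FDR 0.0362) passed the FDR criterion only, and those in M[IL-4] were 0.56 (FDR 0.195) with HC3 and -0.38 (FDR 0.425) with RSM. HC3 exceeded RSM in M[0] (log2 1.60, SE 0.282, FDR 0.000622), although the FDR was 0.0554 without replicate 3. The HC3 effect was smaller in M[IL-4] than in M[0] (interaction -1.94, FDR 0.0139), a call that was lost without any 1 of the replicate numbers. With HC3 present, IL-4 lowered *F3* (log2 -1.68, FDR 0.000371). With RSM the IL-4 difference of -1.02 (FDR 0.0433) lay at the fold threshold and lost its call under most alternatives.

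*F13a1*, the gene of the catalytic subunit of factor XIII, had few counts and went down with HC3. In M[0] it had 71, 49 and 69 counts with Veh, 12, 19 and 18 with HC3, and 83, 93 and 77 with RSM. In M[IL-4] the counts were 25, 6 and 26 with Veh, 7, 4 and 8 with HC3, and 15, 2 and 11 with RSM, with replicate 2 lowest in each of these 3 groups. HC3 was lower than Veh in M[0] without overlap (log2 -2.03, SE 0.402, FDR 0.000431) and lower than RSM (-2.36, SE 0.397, FDR 0.000406). In M[IL-4] the fall with HC3 (-1.57, SE 0.520, FDR 0.0225) was called although the ranges overlapped, and it was lost without replicate 1 (or 3) and in a fit of only the compared groups. The RSM difference in M[IL-4] (-1.10, SE 0.486, FDR 0.0839) was not called. It was called with a replicate block within each polarization (-1.10, FDR 0.0143), with DESeq2 (-1.13, FDR 0.0450) and with no count filter (-1.12, FDR 0.0270). Leaving out replicate 2 also gave a call (-1.06, FDR 0.0265). IL-4 lowered *F13a1* with Veh (log2 -1.73, FDR 0.00240) and with RSM (-3.16, FDR 2.52e-05). With HC3 its difference of -1.27 (FDR 0.128) was not called, but it was with a replicate block within each polarization (-1.46, FDR 0.00811) and with no count filter (-1.24, FDR 0.0472).

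Among the anticoagulant members, *Thbd* went up with RSM and *Procr* with both inhibitors in naïve cells. *Thbd* in M[0] measured 39.1, 37.9 and 41.8 CPM with Veh, 43.1, 39.8 and 44.6 CPM with HC3, and 77.3, 58.3 and 69.8 CPM with RSM. In M[IL-4] it measured 21.6, 17.0 and 19.9 CPM with Veh, 23.0, 18.7 and 25.1 CPM with HC3, and 51.5, 38.8 and 44.0 CPM with RSM. RSM lay above both other treatments without overlap in each polarization, while HC3 overlapped Veh. RSM raised *Thbd* in M[IL-4] (log2 1.20, SE 0.127, FDR 3.74e-07) and passed the FDR only in M[0] (0.79, SE 0.121, FDR 3.20e-05). The interaction of 0.41 did not pass the FDR over all tested genes (FDR 0.169), although its 95% interval of 0.05 to 0.78, which is not corrected for the number of genes, excluded 0. HC3 differed from Veh by 0.10 (FDR 0.533) and 0.19 (FDR 0.268) on the log2 scale. It was lower than RSM by -0.69 (FDR 0.000579) in M[0] and -1.01 (FDR 1.67e-05) in M[IL-4], the second of which fell just under the fold threshold without replicate 1 (or 2), with DESeq2 and with no count filter. IL-4 lowered *Thbd* with Veh (log2 -1.02, FDR 5.14e-06), where the log2 value was -0.97 without replicate 2, and the values with HC3 and RSM were -0.93 and -0.61, both past the FDR only.

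*Procr* in M[0] measured 5.81, 6.17 and 4.68 CPM with Veh, 21.3, 20.3 and 17.6 CPM with HC3, and 11.5, 14.7 and 13.1 CPM with RSM. In M[IL-4] it measured 5.33, 7.08 and 7.62 CPM with Veh, 9.91, 11.1 and 9.75 CPM with HC3, and 6.77, 6.89 and 4.58 CPM with RSM. HC3 was the highest treatment in both polarizations, and RSM stood above Veh only in M[0]. In naïve cells *Procr* rose with HC3 (log2 1.83, SE 0.166, FDR 4.17e-08) and RSM (1.24, SE 0.167, FDR 7.13e-06). After IL-4 the difference was 0.62 (FDR 0.00596) with HC3, past the FDR only, and -0.13 (FDR 0.584) with RSM. Both inhibitor effects were smaller in M[IL-4], the HC3 interaction being -1.21 (FDR 0.00354) and the RSM interaction -1.37 (FDR 0.000966), and both lost the call without replicate 3. IL-4 lowered *Procr* with RSM (log2 -1.11, FDR 6.85e-05), passed the FDR only with HC3 (-0.94) and differed by 0.27 (FDR 0.268) with Veh.

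*Tfpi*, the inhibitor of the initiating complex, was not called in any of the 11 comparisons. Its group means ran from 21.2 ± 0.728 CPM in HC3 M[0] to 28.6 ± 6.16 CPM in RSM M[IL-4] (SD, n = 3), and its libraries from 20.2 to 35.4 CPM. The 95% intervals of its inhibitor differences reached from -0.44 to 0.14 for HC3 and from -0.22 to 0.36 for RSM in M[0], and from -0.37 to 0.21 and -0.18 to 0.39 in M[IL-4], on the log2 scale.

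Counted over the 7 members chosen by function, HC3 in M[0] called 2 higher (*F3*, *Procr*) and 1 lower (*F13a1*), where 5.93% of all tested genes were called higher and 6.11% lower. RSM in M[0] called 1 higher (*Procr*) against backgrounds of 5.05% higher and 6.51% lower. In M[IL-4], HC3 called 2 lower (*F10*, *F13a1*; backgrounds 4.72% higher, 5.53% lower), and RSM called 1 higher (*Thbd*) and 1 lower (*F10*; backgrounds 5.05% and 6.0%). Over the same 7, IL-4 with Veh called 2 higher (*F7*, *F10*) and 2 lower (*F13a1*, *Thbd*) against 2.83% and 3.83%. Of all 9 members, IL-4 called 3 with HC3 (*F3*, *F7*, *F10*; background 3.97%) and 5 with RSM (*F3*, *F7*, *F10*, *F13a1*, *Procr*; background 4.26%). HC3 and RSM differed in 3 of 9 in M[0] (*F5*, *F3*, *F13a1*; background 3.04%) and in 3 of 9 in M[IL-4] (*F5*, *Selp*, *Thbd*; background 2.8%). The interaction was called in 4 of 7 for HC3 (*F3*, *F7*, *F10*, *Procr*; background 1.24%) and 3 of 7 for RSM (*F7*, *F10*, *Procr*; background 2.14%). Since the members were picked with results in view, these shares are read only as a description.

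Within 250000 bases of *Selp* and *F5*, 10 of 17 other genes passed the filter. One of them, *Gm16587*, passed only through its inhibitor-treated libraries and was picked after its values were seen, so that its values are a description. *Gm16587* is annotated as an antisense gene on the minus strand inside *Selp* (chr1:164143432-164146366). It had 0 counts in all 6 Veh libraries, 81, 112 and 85 with HC3 and 138, 160 and 130 with RSM in M[0], and 51, 72 and 68 with HC3 and 170, 148 and 146 with RSM in M[IL-4]. Against a floor of 3 counts over the vehicle group it was at least 89.6-fold and 139-fold higher with HC3 and RSM in M[0], and at least 65.5-fold and 151-fold higher in M[IL-4]. Of the *Selp* exons, 14.1% lie opposite annotated antisense exons, as do 3.53% of those of *F5*. No strand setting is stated for the counting, so reads of the 2 strands there cannot be told apart. The other 9 tested neighbours made 1 call, a fall of *BC055324* with RSM in M[IL-4] (log2 -1.07, FDR 0.000657; background 6.0% lower). Below the fold threshold, *Slc19a2*, a thiamine transporter gene, and *Blzf1*, a Golgi protein gene, were higher past the FDR criterion in all 4 inhibitor comparisons. Their log2 differences were 0.60 and 0.41 (*Slc19a2*) and 0.61 and 0.60 (*Blzf1*) with HC3 and RSM in M[0]. In M[IL-4] they were 0.69 and 0.87 (*Slc19a2*) and 0.72 and 0.57 (*Blzf1*), and the highest of the 8 FDR values was 0.0112. The pattern was not particular to this window. Near *F7* and *F10*, *Dcun1d2* was also higher past the FDR only in all 4 inhibitor comparisons (log2 0.30 to 0.49). The share of all tested genes past the FDR alone was not counted. The selectin gene *Sele* lies in the same window and totalled 6 counts over 18 libraries, under the filter.

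**Figure D3:**
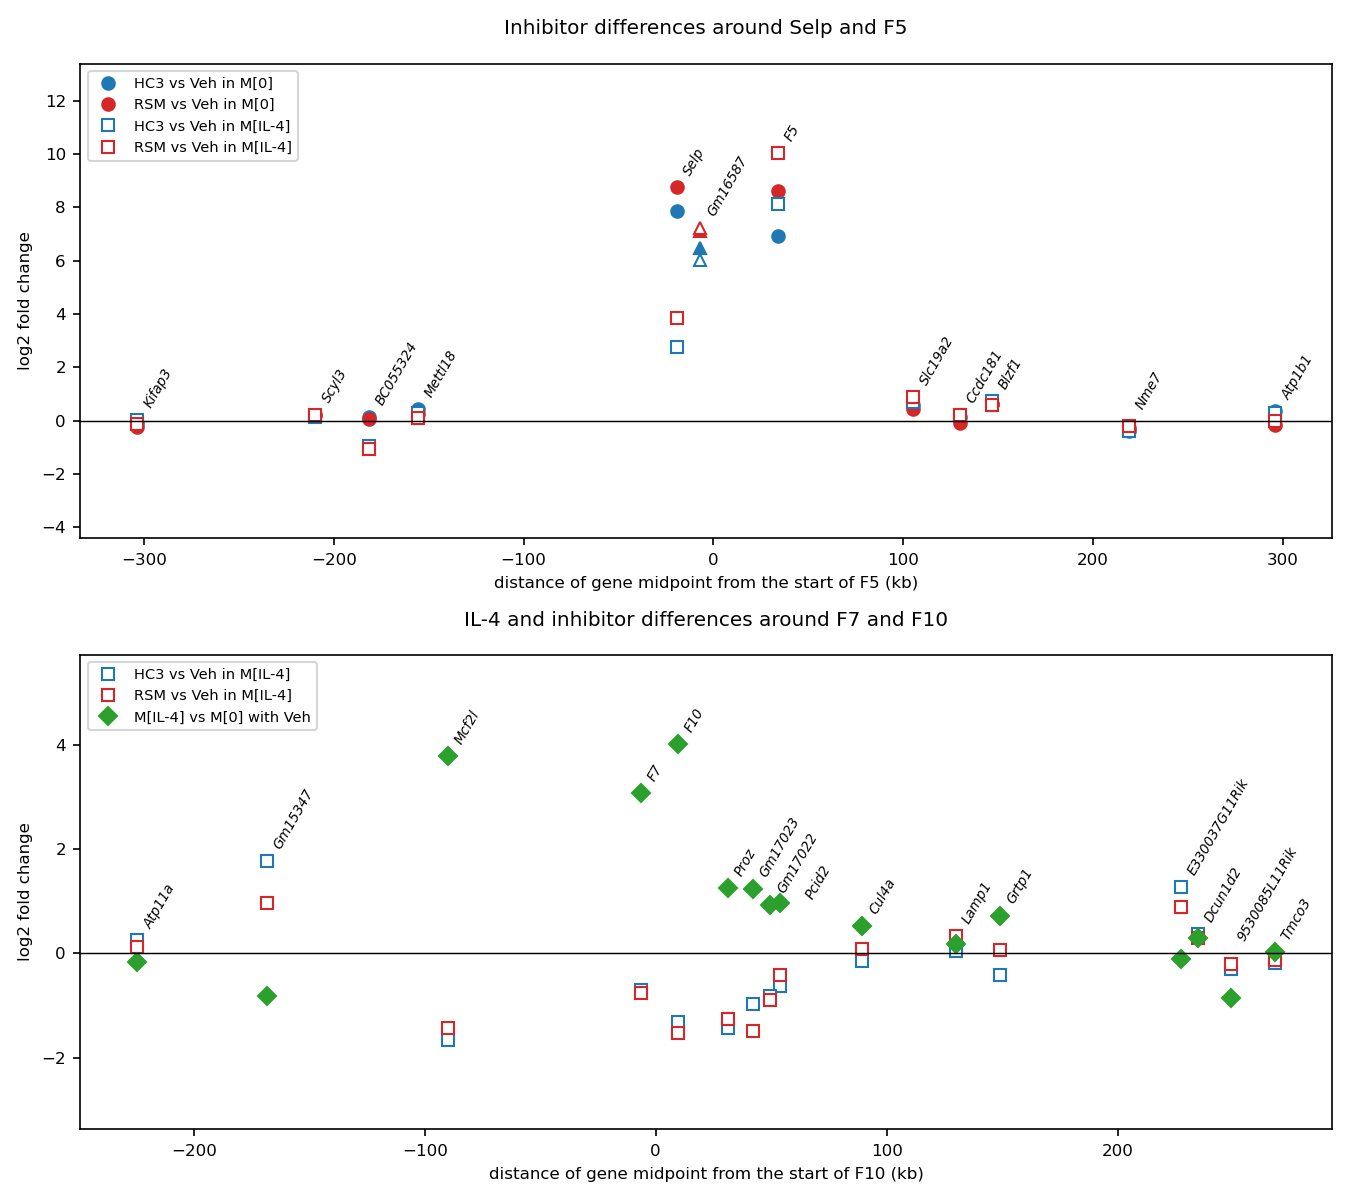
Log2 fold changes of tested genes within 250000 bases of each pair, by the distance of the gene midpoint from the start of *F5* (top, inhibitors against Veh) or *F10* (bottom, M[IL-4] values of both inhibitors and the IL-4 difference with Veh). Triangles are lower bounds of *Gm16587* against the 3-count floor. In the top panel *Selp*, *Gm16587* and *F5* stand at 2.77 or more, and the other genes lie between -1.07 (*BC055324*) and 0.87 (*Slc19a2*). In the bottom panel *Mcf2l*, *F7*, *F10* and *Proz* are above 1 with IL-4 and below 0 with both inhibitors.

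At *F7* and *F10*, 14 of 25 neighbours passed the filter, and IL-4 with Veh called 3 of them higher (background 2.83%). *Mcf2l*, a guanine nucleotide exchange factor gene upstream of *F7*, rose from 3.42 ± 0.313 to 47.2 ± 7.73 CPM (SD, n = 3; log2 3.78, SE 0.160, FDR 3.38e-12). *Proz*, which encodes the vitamin K-dependent protein Z and lies downstream of *F10*, rose from 6.42 ± 0.425 to 15.3 ± 3.00 CPM (log2 1.25, FDR 3.15e-05). The third was the low-count antisense gene *Gm17023* (log2 1.24, FDR 0.0409), whose call was lost without any 1 of the replicate numbers. In M[IL-4], *Mcf2l* was lower with HC3 (log2 -1.66, FDR 1.65e-08) and RSM (-1.43, FDR 9.05e-08), and *Proz* was lower with HC3 (-1.42, FDR 4.75e-06) and RSM (-1.27, FDR 1.56e-05). The remaining neighbour calls were of genes with few counts, *Gm15347* (higher with HC3 in both polarizations), *E330037G11Rik* (higher with HC3 in M[IL-4]), *9530085L11Rik* (lower with RSM in M[0]) and *Gm17023* (lower with RSM in M[IL-4]), each lost under at least 1 alternative.

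Of 55 further genes of coagulation, fibrinolysis and selectin ligands, 34 passed the filter. HC3 called 3 higher and 4 lower in M[0] (backgrounds 5.93% and 6.11%) and 2 higher and 5 lower in M[IL-4] (4.72% and 5.53%). RSM called 4 higher and 7 lower in M[0] (5.05% and 6.51%) and 3 higher and 6 lower in M[IL-4] (5.05% and 6.0%). The median log2 differences of the 34 were 0.02 and -0.34 for HC3 and -0.08 and -0.32 for RSM in M[0] and M[IL-4], beside medians over all tested genes of 0.02, 0.01, 0.01 and 0.02 in the order HC3 and RSM in M[0], HC3 and RSM in M[IL-4]. IL-4 with Veh called 6 higher and 2 lower (backgrounds 2.83% and 3.83%; median 0.22, all genes -0.01). The 6 include *F2rl2* and *Tfpi2*, which passed the filter only through M[IL-4] libraries, so their calls are a description. *F2rl2* is also among the genes called lower with HC3 in M[IL-4] and with RSM in both polarizations.

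*Mcfd2*, whose product works with *Lman1* in the export of factors V and VIII from the endoplasmic reticulum, was called higher in all 4 inhibitor comparisons, with log2 differences between 1.10 and 1.16. Its naïve vehicle cells held 128 ± 5.50 CPM and its naïve HC3 cells 285 ± 25.3 CPM. *Vwf*, the gene of von Willebrand factor, rose in M[0] from 77.7 ± 14.1 CPM to 237 ± 32.5 with HC3 (log2 1.61) and 243 ± 30.3 with RSM (1.65), and IL-4 with Veh raised it by 1.44.

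*Pros1*, the gene of protein S, a cofactor of activated protein C, fell in all 4 inhibitor comparisons, with log2 differences of -1.33 (HC3) and -1.21 (RSM) in naïve cells, then -1.55 (HC3) and -1.38 (RSM) after IL-4. *F9*, the gene of factor IX, fell in all 4 as well, on 73 summed counts in Veh M[0] against 33 with HC3 and 12 with RSM, although both HC3 calls were lost without some replicate numbers. *Selplg*, which encodes PSGL-1, the leukocyte ligand of P-selectin, went from 166 ± 24.7 CPM with Veh to 63.1 ± 6.94 with HC3 (log2 -1.40, FDR 5.26e-08) and 81.4 ± 6.00 with RSM (-1.03, FDR 2.47e-06) in M[0], where the RSM value was -0.97 without replicate 2. *Fut7*, a fucosyltransferase that helps to build selectin ligands, fell with HC3 (-1.10) and RSM (-2.02) in M[0] and with RSM (-1.57) in M[IL-4]. *F2rl2*, the gene of protease-activated receptor 3, had 4, 7 and 1 counts in Veh M[0] and 89, 112 and 98 in Veh M[IL-4] (log2 4.60, FDR 2.07e-06), and in M[IL-4] it was lower with HC3 (-3.23) and RSM (-5.09). *Plau*, encoding urokinase, was lower with RSM both in M[0] (-1.25) and after IL-4 (-1.90), while its receptor gene *Plaur* rose with RSM in M[0] (1.15) and with IL-4 and Veh (1.23). In M[IL-4] *Plaur* went the other way, from 72.6 ± 1.31 CPM with Veh to 50.3 ± 0.876 with HC3 (log2 -0.53, FDR 8.68e-05) and 43.8 ± 5.97 with RSM (-0.73, FDR 2.16e-06), without overlap with Veh and past the FDR only. *Mfge8*, a phosphatidylserine-binding protein gene, fell with RSM in M[0] (-1.10), and *Serpinb2*, which encodes an inhibitor of plasminogen activators, rose with RSM in M[IL-4] (1.01). With IL-4 and Veh further calls were *Tfpi2* (2.56), the thrombin receptor gene *F2r* (1.21) and *Plat*, which encodes tissue plasminogen activator (-1.23). The calls of *Serpinb2*, *Tfpi2*, *F2r* and *Plat* were each lost without at least 1 replicate number.

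**Figure D4:**
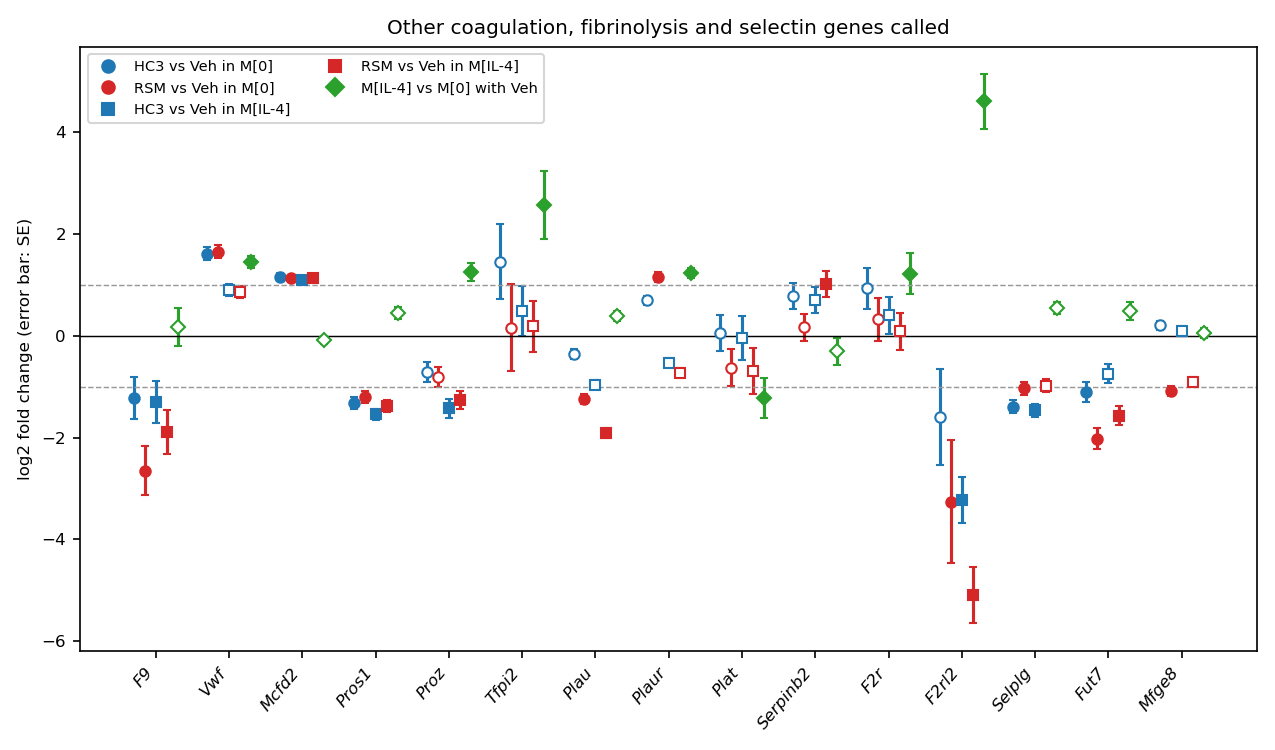
Log2 fold changes with SE of 15 further coagulation, fibrinolysis and selectin genes called in any of 5 comparisons. Filled symbols are called (FDR below 0.05 with a log2 difference reaching 1 in either direction) and open symbols are not. *Mcfd2* is filled above 1 in the 4 inhibitor comparisons, and *Pros1* and *F9* are filled below -1.

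Markers of other cell types that the cultures could hold were examined beside these values. Of 10 macrophage markers, all passed the filter, with summed group medians for Veh, HC3 and RSM of 22172, 9466 and 16976 CPM in naïve cells and 14224, 8963 and 15542 CPM after IL-4. HC3 called 7 of them lower in M[0] and 2 in M[IL-4] (backgrounds 6.11% and 5.53% lower). RSM called 3 lower in M[0] and 0 in M[IL-4] (backgrounds 6.51% and 6.0% lower). The 10 platelet and megakaryocyte markers summed to 72.4 to 87.1 CPM in Veh M[0], 33.3 to 43.1 in HC3 M[0] and 232 to 317 in RSM M[0], and to 29.4 to 38.6, 24.9 to 26.6 and 160 to 246 CPM in M[IL-4]. *Pf4* made most of these sums, *Gp1bb* had 0 counts in every group, and *Gp9* had 0 to 2 counts per group. With HC3 in M[0], *Pf4* and *Gp1ba* were called lower and no platelet marker was called higher. *Ppbp* was called higher with HC3 in M[IL-4] (log2 1.39, FDR 0.0451), and *Pf4* and *Ppbp* were in both RSM groups. The part of platelet or megakaryocyte RNA in the *F5* and *Selp* values of any group was not tested.

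The 10 endothelial markers summed to 23.8 to 31.4 CPM with Veh, 37.0 to 50.1 with HC3 and 70.3 to 85.7 with RSM in M[0], and to 14.4 to 17.8, 14.5 to 18.9 and 43.7 to 51.2 CPM in M[IL-4]. Of these 10, 2 passed the filter. *Kdr* made most of the sums in M[0] and was called higher with RSM in both polarizations, and *Pecam1* was called lower with HC3 (log2 -2.19) and RSM (-3.41) in M[0] and with HC3 in M[IL-4] (-1.53). *Cldn5* had 0 counts in 5 of 6 groups, and *Cdh5*, the gene of VE-cadherin, was at 0.526 ± 0.166 CPM with Veh, 0.297 ± 0.0770 with HC3 and 0.192 ± 0.198 with RSM in M[0] (SD, n = 3). The 10 mast cell and basophil markers summed to medians of 4.20, 16.0 and 5.07 CPM for Veh, HC3 and RSM in M[0] and 3.23, 7.30 and 1.45 CPM in M[IL-4]. Of the 4 tested, *Kit*, *Mcpt8* and *Gata2* were called higher with HC3 in M[0], *Mcpt8* and *Gata2* with RSM in M[0], and *Kit* with HC3 in M[IL-4] (backgrounds 5.93%, 5.05% and 4.72%). *Ms4a2*, *Fcer1a*, *Tpsb2*, *Mcpt4*, *Cma1* and *Prss34* had 0 counts in all 3 M[0] groups. The large peritoneal macrophage list, with 7 of 10 genes tested, summed to medians of 19.4, 33.4 and 24.0 CPM in M[0] and 16.0, 16.6 and 15.7 CPM in M[IL-4]. *Prg4* and *Tgfb2* of that list were called higher with HC3 in M[0], *Prg4* with RSM in M[0], *Tgfb2* with HC3 in M[IL-4] and *Aspa* with RSM in M[IL-4] (backgrounds 5.93%, 5.05%, 4.72% and 5.05%). The 10 neutrophil markers summed to medians of 11.4, 5.89 and 50.7 CPM for Veh, HC3 and RSM in M[0]. In M[IL-4] these medians were 17.6, 8.60 and 23.8 CPM. The 2 that passed the filter, *S100a8* and *Mmp8*, were called higher with RSM in M[0] (background 5.05%). *Mmp8* was called lower with HC3 in M[IL-4] (background 5.53%). *Ly6g*, *S100a9*, *Elane*, *Ngp* and *Retnlg* had 0 counts in RSM M[0]. The stromal list summed to 652 to 1129 CPM with Veh, 1583 to 2171 with HC3 and 1289 to 1884 with RSM in M[0]. With HC3 and RSM there, 3 and 2 of its 8 tested genes were called higher (backgrounds 5.93% and 5.05%). In M[IL-4] *Col3a1* was called higher with each inhibitor, and *Dcn* was called lower with RSM in M[0] (log2 -1.51) and M[IL-4] (-1.55). The part of these other cell types in the member values was not tested.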

How the data were processed

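Poly-T selected mRNA of 18 BMDM libraries (6 groups, 3 per group, from the sample labels) was sequenced by the authors. Their processing used fastp for trimming, STAR for alignment to GRCm38, Picard for marking duplicates, which stayed in, and featureCounts for assigning read pairs to exons. The deposited values are raw counts per Ensembl gene. The annotation release and strand setting are not given in the sources used here. GENCODE M21 gave symbols, positions and exons for 55144 of 55385 listed genes.

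The filter of 10 or more counts in 2 or more libraries left 14979 genes, which were tested in 1 fit of all groups with TMM scaling and edgeR 4.0.16 (glmQLFit, glmQLFTest, R 4.3.3), without a block. A call required a Benjamini-Hochberg FDR below 0.05 over all tested genes together with a log2 difference of 1 or more in either direction. CPM are counts scaled to a TMM-scaled library total of 1000000. The 9 genes, the pathway and marker lists and the tests were chosen with earlier results of these data known. Of the wider list, the genes named are called genes with the highest or lowest fold change in their subgroup, and *Gm16587*, *Sele* and the named markers and neighbours were picked after their values were seen. Some genes of the lists enter the counts but are not reported here by name.

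Same-numbered libraries of 1 polarization deviated together, with correlations from 0.110 to 0.372 that exceeded 0.1 in 18 of 18 pairs, so a fit with that block is given as an alternative where it changed the call of a member. Across polarizations 12 of 27 pairs exceeded 0.1. The chi-square value per gene between replicates was 6.30 to 20.3, against about 1 for counting error alone, and p-values measure the spread between these libraries. Alternatives were a replicate block, library-size scaling, no count filter (29054 genes), filterByExpr (14466 genes), DESeq2 1.42.0, fits limited to the groups compared and leaving out each replicate number. The steps were tested on simulated data. Figures were drawn with matplotlib 3.10.9.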

Additional observations from a re-analysis of the deposited data

Results flagged for a closer look

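For 4 members the effect of an inhibitor differed between M[0] and M[IL-4] by the interaction term of the edgeR fit. *F3* had an HC3 interaction of -1.94 on the log2 scale. *F7* had -1.10 with HC3 and -1.04 with RSM. *F10* had -1.10 with HC3 and -1.99 with RSM. *Procr* had -1.21 with HC3 and -1.37 with RSM. Of these 7 interactions, that of *F10* with RSM was called without each replicate number in turn, and each of the others was lost without at least 1 of them. With 3 libraries per group, no single library was examined as an outlier.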

How the results depend on the processing

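Of 989 recalculated single-gene values of the 9 members, 928 stayed the same, 30 lost a call, 7 gained one and 7 changed sign. Tested values stayed the same where they kept their direction and side of the threshold. Untested values of *F5* and *Selp* did so where they kept their direction and moved by less than a limit. The other 17 were untested values of *F5* and *Selp* that moved past this limit when a replicate number was left out. That limit was the replicate spread for differences between 2 groups and a fixed log2 value for interactions. Examples are 7.34 to 9.82 for *Selp* (HC3 in M[0], whose vehicle group has 0 counts without replicate 3) and 0.61 to 1.85 for the HC3 interaction of *F5*. For the neighbours and wider list, 863 of 923 kept their direction and side of the threshold. Depth limits *F5* and *Selp* in the vehicle groups, where 1 count decides the naïve *Selp* ratio. With 2 libraries per group, leaving out a replicate number also lowers the power of each fit. The cause of other changes was not tested.

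The members called for HC3 in M[IL-4] numbered 2 and became 1 in a fit of only the compared groups and 1 to 2 when a replicate number was left out. The same omission gave 3 to 4 calls instead of 5 for IL-4 with RSM, 1 to 3 instead of 3 for HC3 against RSM in M[IL-4], 0 to 2 instead of 4 for the HC3 interaction (0 without replicate 3) and 1 to 3 instead of 3 for the RSM interaction (1 without replicate 3). In the wider list, it gave 5 to 6 instead of 8 for IL-4 with Veh.

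With a replicate block within each polarization, RSM in M[IL-4] called 3 of 7 members instead of 2, by *F13a1*, and the other inhibitor comparisons and those of HC3 with RSM kept their member counts. *F13a1* was also called for IL-4 with HC3 (log2 -1.46, FDR 0.00811) and for the RSM interaction (-1.43, FDR 0.0181), and *F3* for IL-4 with RSM was lost (-0.99).

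Signs changed for uncalled differences only, most of them when a replicate number was left out. The ranges were -0.10 to 0.022 for *F5* (IL-4 with HC3), -0.61 to 0.013 for *F3* and -0.35 to 0.14 for *Procr* (RSM in M[IL-4]), and -0.076 to 0.62 for *F7* (RSM in M[0]). They were -0.0042 to 0.14 for *F7* (HC3 against RSM in M[IL-4]), and -0.0041 to 0.16 and -0.11 to 0.13 for *Tfpi* (RSM in M[IL-4] and RSM interaction). With IL-4 and Veh they were -0.19 to 0.047 for *Slc19a2* and -0.088 to 0.088 for *Blzf1*, which was -0.052 with library-size scaling. Among other neighbours they were -0.023 to 0.078 for *Mcf2l* and -0.12 to 0.16 for *BC055324* (RSM in M[0]), and -0.63 to 0.13 for *9530085L11Rik* (RSM in M[IL-4]). *E330037G11Rik* ranged from -0.62 to 0.67 (HC3 in M[0]), -0.26 to 0.21 (RSM in M[0]) and -0.34 to 0.15 (IL-4 with Veh), and for RSM in M[0] was -0.0034 under the common replicate block and -0.0092 under the block fitted per polarization.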

Other observations

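The genes whose log2 CPM ran most closely with that of *F5* over the 18 libraries were *Gm16587* (Pearson r 0.993), *Pvr* (0.991), *Ero1l* (0.987), *Xpot* (0.984) and *Plpp5* (0.983). For *Selp* they were *Atf5* (0.986), *Etf1* (0.982), *Cdv3* (0.978), *Nedd9* (0.977) and *Slc2a1* (0.975). *F5* and *Selp* correlated at 0.918, which placed *Selp* at rank 223 for *F5* and *F5* at rank 127 for *Selp*. These values describe likeness only, because the libraries fall into treatment groups and share their depth and scaling, and they carry no test.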
